A study of Mus musculus with 30 samples.

Results

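The 37 genes described here make cholesterol, control its making, or belong to the lipid programme of the liver X receptors (LXRs). They were chosen by known function, but with earlier results of these data known, so their counts are no independent test of the pathways. They were found by mapping the mouse Ensembl identifiers of the count files to gene symbols. All 37 were found among the 50686 genes in the files, and all 37 passed the filter on low counts that left 15310 genes for testing. The SREBP2 pathway holds 22 of them, with 8 genes of the mevalonate branch, 10 of the sterol branch and 4 that control the pathway or carry sterol. LXR and lipogenic genes make up 13, of which 8 are receptors, targets and lipid carriers and 5 are lipogenic or lipase genes. The remaining 2, Npc1 and Soat1, move cholesterol out of lysosomes and esterify it.

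RNA came from macrophage cultures on the way to osteoclasts, large cells that resorb bone and arise when macrophage precursors fuse. Bone marrow macrophages of the mouse strain C57BL/6J were grown with 25 ng/ml M-CSF plus 100 ng/ml RANKL in medium with 10% fetal bovine serum, and all 10 groups of 3 libraries shared this treatment. Wild-type (WT) mice gave 2-day cultures at 6 and 20 months of age, and cultures kept until large multinucleated cells appeared at 1, 6 and 20 months. Terc-/- mice, which lack the RNA template of telomerase and are called KO below, gave multinucleated cultures at 1 and 6 months. A second pair of KO groups of the same ages carries the number 519 in its titles (set 519), and a second 1-month multinucleated WT group carries a tag beginning with D1 (set D1). The labels explain neither tag, and libraries without one are called unprefixed. The telomerase-null generation of the mice is not given in the sources used here, nor is whether replicates were separate animals, pools or repeat cultures. For that reason a p-value here reflects no more than the variation among these samples, and that variation may be technical. The study asked whether osteoclast gene expression differs between ages of WT and Terc-/- mice.

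Cholesterol is built from acetyl-CoA through the mevalonate branch, which ends in farnesyl diphosphate and squalene, and the sterol branch, which turns squalene into lanosterol and then cholesterol. When sterol is scarce in the endoplasmic reticulum, SCAP escorts the transcription factor SREBP2 (gene Srebf2) to the Golgi for cleavage, and cleaved SREBP2 switches on the genes of both branches; INSIG1 holds the complex back when sterol is plentiful. The LXRs (Nr1h3 and Nr1h2) are activated by oxysterols and switch on cholesterol efflux, remodelling of phospholipids and, through Srebf1, fatty acid synthesis. In osteoclasts, membrane cholesterol is needed for fusion and survival, and the mevalonate enzyme FDPS is the target of nitrogen-containing bisphosphonates.

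The promoters of Hmgcs1 and Insig1 are shown because these SREBP2 pathway genes had the largest rises from day 2 to the multinucleated stage in 6-month WT. HMGCS1 makes HMG-CoA, the substrate of the rate-limiting step of the mevalonate branch. Both sequences are the 250 bases before the RefSeq start on the plus strand of GRCm38.p6, at chr13:119690101-119690350 for Hmgcs1 and chr5:28071162-28071411 for Insig1. Capitals mark 3 motifs read on both strands, the NF-Y box CCAAT, which appears here as ATTGG from the other strand, the sterol regulatory element CACNCCAC, which in Insig1 appears as GTGGCGTG from the other strand, and the palindromic E-box CACGTG.
Hmgcs1: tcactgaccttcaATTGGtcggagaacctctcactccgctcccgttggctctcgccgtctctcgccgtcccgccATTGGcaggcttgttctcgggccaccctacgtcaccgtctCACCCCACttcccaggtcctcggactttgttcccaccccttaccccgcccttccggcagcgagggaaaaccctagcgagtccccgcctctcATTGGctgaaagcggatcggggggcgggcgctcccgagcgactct
Insig1: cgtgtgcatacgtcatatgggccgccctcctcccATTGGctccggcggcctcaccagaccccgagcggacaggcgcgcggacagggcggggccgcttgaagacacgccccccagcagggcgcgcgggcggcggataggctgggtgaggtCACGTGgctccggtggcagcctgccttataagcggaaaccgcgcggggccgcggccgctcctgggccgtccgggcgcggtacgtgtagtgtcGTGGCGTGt
RefSeq promoter windows of 300 bases (250 before the start and 50 after it) were matched by symbol for 28 of the 37 genes, 18 of the SREBP2 pathway and 9 of the LXR and lipogenic genes among them. A gene was counted if any of its windows held a match. CCAAT occurred for 16 of the 18 SREBP2 pathway genes (88.9%) and 5 of the 9 LXR and lipogenic genes (55.6%). It occurred for 41.1% of all 27025 genes with a window. CACNCCAC occurred for 3 of the 18 SREBP2 pathway genes (16.7%), for none of the 9 and for 7.12% of all genes with a window. CACGTG occurred for 5 of the 18 (27.8%), 1 of the 9 (11.1%) and 8.09% of all. A match is a run of letters and not a measured binding site.

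Library totals were 4269798 to 12987993 counts in the 6 libraries of set 519 and 13182063 to 25147975 in the other 24. Terc itself had 5 counts over the 18 WT libraries, in 3 of them, and 0 over the 12 KO libraries, so these polyadenylated libraries cannot check the genotype. Set D1 showed 882 CPM of Xist (CPM are counts scaled to a library total of 1000000, adjusted for library composition by TMM) and no counts of Y-linked genes while the other 27 libraries had Y-linked RNA, so comparisons with set D1 also compare the sexes. The summed level of 10 osteoclast markers (Ctsk, Acp5, Mmp9 and others) did not follow the stage in the labels. It was 3956 and 4754 CPM in the 2-day groups and 7458 to 45243 CPM in set 519, set D1 and the 6- and 20-month WT multinucleated groups. In the unprefixed multinucleated groups of 1-month KO, 1-month WT and 6-month KO it was 713, 2435 and 2627 CPM. The sum of 10 macrophage markers ran from 9270 CPM in 2-day 6-month WT to 48447 CPM in unprefixed 1-month KO, and that of 10 stromal markers (Col1a1, Dcn and others) from 481 CPM in set 519 6-month KO to 5535 CPM in 2-day 6-month WT. The 10 marker genes of each list are counted beside the comparisons below, and their part in the differences of the 37 genes was not tested. In bulk RNA, fewer cells of a type and less RNA per cell cannot be told apart.

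Library values below are CPM from lowest to highest, ± on a CPM level is the SD over 3 libraries, and ± on a log2 fold change stands for the standard error. Rises and falls are named only where the Benjamini-Hochberg adjusted p of edgeR's quasi-likelihood test over all 15310 genes was under 0.05. Per kilobase of exon, Lpl (lipoprotein lipase, which frees fatty acids from lipoproteins) was the most abundant of the 37 at 233 CPM per kb averaged over the 10 groups. Apoe, the lipoprotein that carries exported cholesterol, followed at 179 CPM per kb. Pltp, a phospholipid transfer protein, reached 59.8 CPM per kb, and then Srebf2, Soat1, Nr1h2, Hmgcs1, Npc1, Insig1 and Abca1 lay close together between 20.8 and 27.7 CPM per kb. At the low end were Lss (2.98 CPM per kb), Tm7sf2 (1.78), Scd1 (1.74) and Fdps (0.366).

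Most SREBP2 pathway genes had a narrower range of group means than the median gene tested. Genes were not matched for level here, and genes of few counts can have wide ratios by counting error. The ratio of the highest to the lowest group mean had a median of 1.68 over the 22 SREBP2 pathway genes, 2.77 over the 13 LXR and lipogenic genes and 2.44 over all genes tested. Scd1 and Scd2, desaturases that make monounsaturated fatty acids, had the widest ratios, 22.6 and 14.7. Abca1, the ATP-driven exporter of cholesterol to apolipoprotein A-I, and Apoe came next at 6.48 and 4.93, and Hsd17b7, a sterol ketoreductase, varied least at 1.39. Set 519 6-month KO had the highest mean of 7 of the 22 SREBP2 pathway genes, and the 2-day groups had the lowest mean of 11 (5 at 6 months and 6 at 20 months). Some levels are less certain because exons overlap another gene and the counting records no strand option. Fdps shares 26.7% of its exon length with Gm43738, Fdft1 26.8% with Ctsb, Pltp 19.3% with Ctsa and Tm7sf2 15.3% with Vps51. Scap shares 13.2% and Lpcat3 10.2%, and the other 31 genes share under 4% each.

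**Figure D1:**
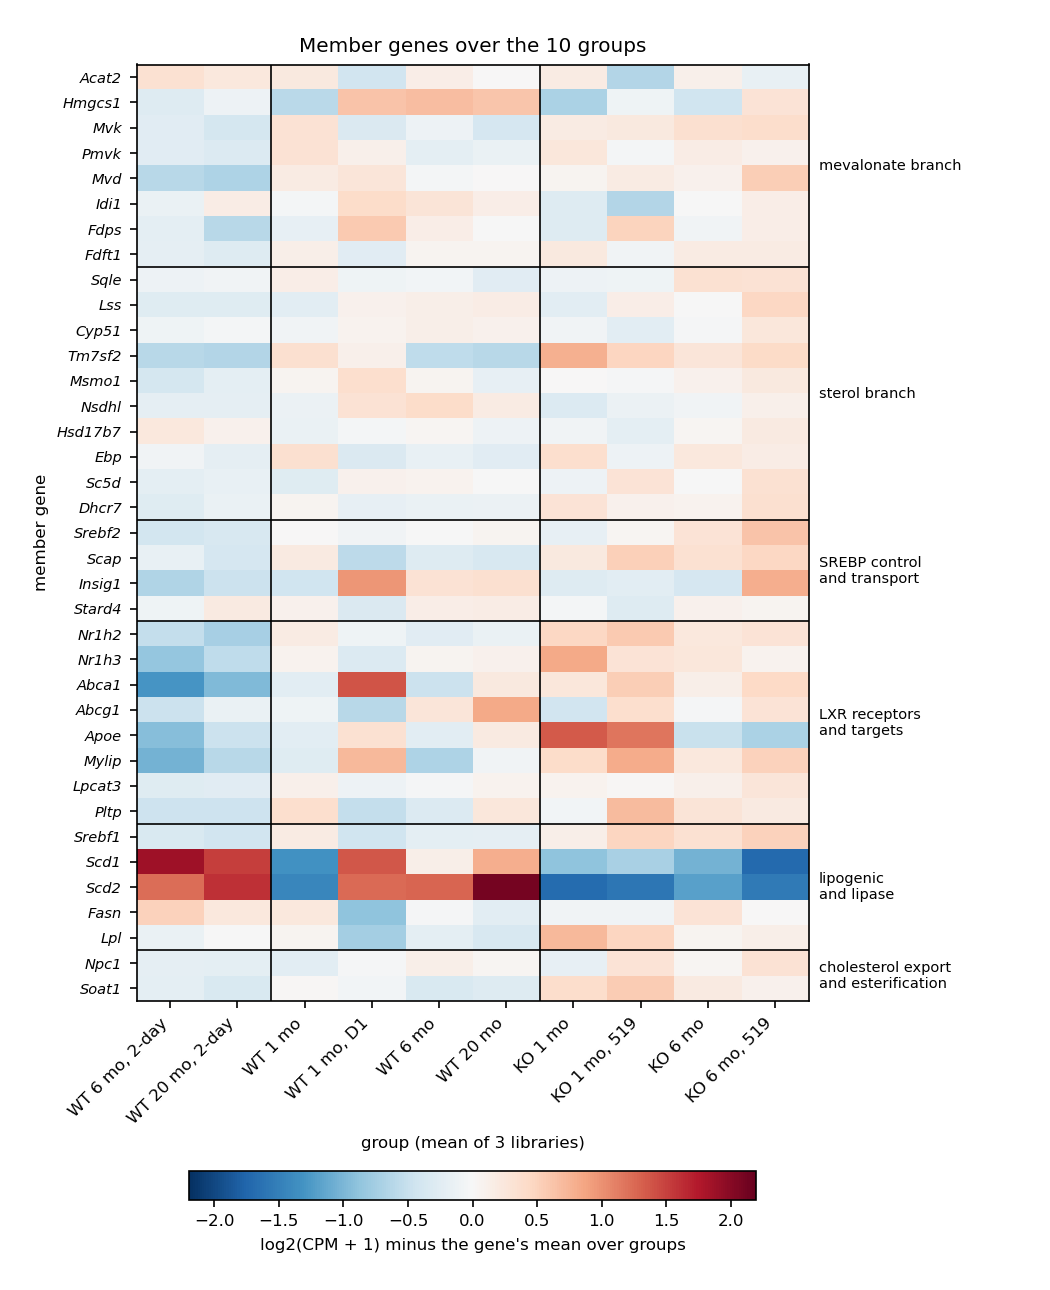
Heat map of the 37 genes (rows, grouped by role) in the 10 groups (columns, ordered by stage and genotype). Each cell is a mean of 3 libraries, coloured by log2(CPM + 1) minus the gene's mean over the groups. Single libraries are not drawn. Scd1 and Scd2 show the strongest contrast, low in every KO group and in unprefixed 1-month WT and high in the other WT groups.

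The first comparison asks what changed in WT cells between day 2 and the multinucleated stage. At 6 months, cholesterol synthesis genes and the LXR export genes both rose, while the desaturase Scd1 and fatty acid synthase fell. In the SREBP2 pathway 12 of 22 genes rose, against 23.4% of all genes tested, and none fell, against 27.4%; 1 was lower at an unadjusted p under 0.05 and 0 by DESeq2. The rises were spread over 4 of the 8 mevalonate genes, 5 of the 10 sterol branch genes and 3 of the 4 control genes. The median log2 fold change of the 22 was 0.26, and that of all genes lay within 0.04 of 0, as in each comparison below.

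Hmgcs1 stood at 56.9, 59.9 and 63.4 CPM in 2-day libraries and at 108, 115 and 130 in multinucleated ones. The groups did not overlap, and the rise was 1.96-fold (log2 0.97 ± 0.07, adjusted p 1.2e-14). Insig1 read 32.3, 38.1 and 41.9 CPM at day 2 and 68.6, 72.4 and 82.8 at the multinucleated stage, a rise of 1.99-fold (0.99 ± 0.08, adjusted p 4.6e-13). For both genes every multinucleated library lay above every 2-day library. Nsdhl, a sterol dehydrogenase, rose from 18.6, 19.4 and 22.6 to 30.9, 31.2 and 31.2 CPM (1.54-fold, adjusted p 4.7e-09). Mvd, which makes isopentenyl diphosphate, rose 1.52-fold (0.60 ± 0.08, adjusted p 1.1e-07), and Srebf2 rose 1.31-fold (0.39 ± 0.06, adjusted p 1.7e-06). Scap (log2 -0.12, adjusted p 0.17) and the squalene epoxidase gene Sqle (0.06, adjusted p 0.4) did not pass the test. Cyp51, lanosterol demethylase, rose 1.18-fold (0.23 ± 0.08, adjusted p 0.012), a call lost without replicate 4 of the multinucleated group (adjusted p 0.096).

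In the LXR group at 6 months 7 of the 8 receptor and target genes rose and none fell, while 2 of the 5 lipogenic genes fell and none rose. Nr1h3, the LXR alpha receptor gene, read 20.3, 20.8 and 22.8 CPM at day 2 and 39.7, 41.2 and 42.3 at the multinucleated stage (1.93-fold, 0.95 ± 0.08, adjusted p 1.9e-12). Abca1 rose from 66.3, 69.3 and 93.0 CPM to 128, 131 and 149 (1.79-fold, 0.84 ± 0.11, adjusted p 9e-08). Abcg1, which exports cholesterol to HDL, rose 1.67-fold (0.74 ± 0.09) and Apoe 1.65-fold (0.72 ± 0.15, adjusted p 9.4e-05). Receptor, exporters and carrier thus rose together with no overlap between groups. Scd1 went the other way, from 19.7, 21.4 and 27.9 CPM to 5.78, 5.98 and 6.87, 3.69-fold lower (-1.88 ± 0.14, adjusted p 1.6e-13). Fasn, fatty acid synthase, was 1.45-fold lower (-0.54 ± 0.09, adjusted p 2.8e-06), and Scd2 read 105 to 167 CPM at day 2 and 120 to 159 later (log2 0.05, adjusted p 0.76).

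At 20 months 8 of the 22 SREBP2 pathway genes rose, against 25.4% of all genes, and 1 fell, against 26.9%, with a median log2 fold change of 0.09. Hmgcs1 rose 1.67-fold (0.74 ± 0.07), Insig1 1.77-fold (0.82 ± 0.08) and Mvd 1.67-fold (0.74 ± 0.08). Sqle was the gene that fell (log2 -0.17), a call lost without replicate 1 of the multinucleated group (adjusted p 0.11). All 8 LXR receptors and targets rose at this age. Abca1 went from 90.5, 92.3 and 106 CPM to 207, 226 and 229 (2.29-fold, 1.20 ± 0.11, adjusted p 3.3e-11). Abcg1 rose 1.99-fold (1.00 ± 0.09, adjusted p 1e-11) and Pltp 1.64-fold (0.72 ± 0.08, adjusted p 7.8e-09). Of the 5 lipogenic genes, Scd1 (1.72-fold lower), Fasn (log2 -0.47) and Lpl (-0.34) fell and Scd2 rose 1.42-fold (0.51 ± 0.12, adjusted p 0.00048). Srebf1 also rose (0.23 ± 0.08), a call lost without replicate 3 of the 2-day group (adjusted p 0.082). All 10 osteoclast markers rose from day 2 to the multinucleated stage at both ages. Of 10 stromal markers 8 fell and 1 rose at 6 months, and 5 fell and 2 rose at 20 months. Macrophage markers showed 7 rises and 1 fall of 10 at 6 months, and 3 rises and 3 falls at 20 months.

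**Figure D2:**
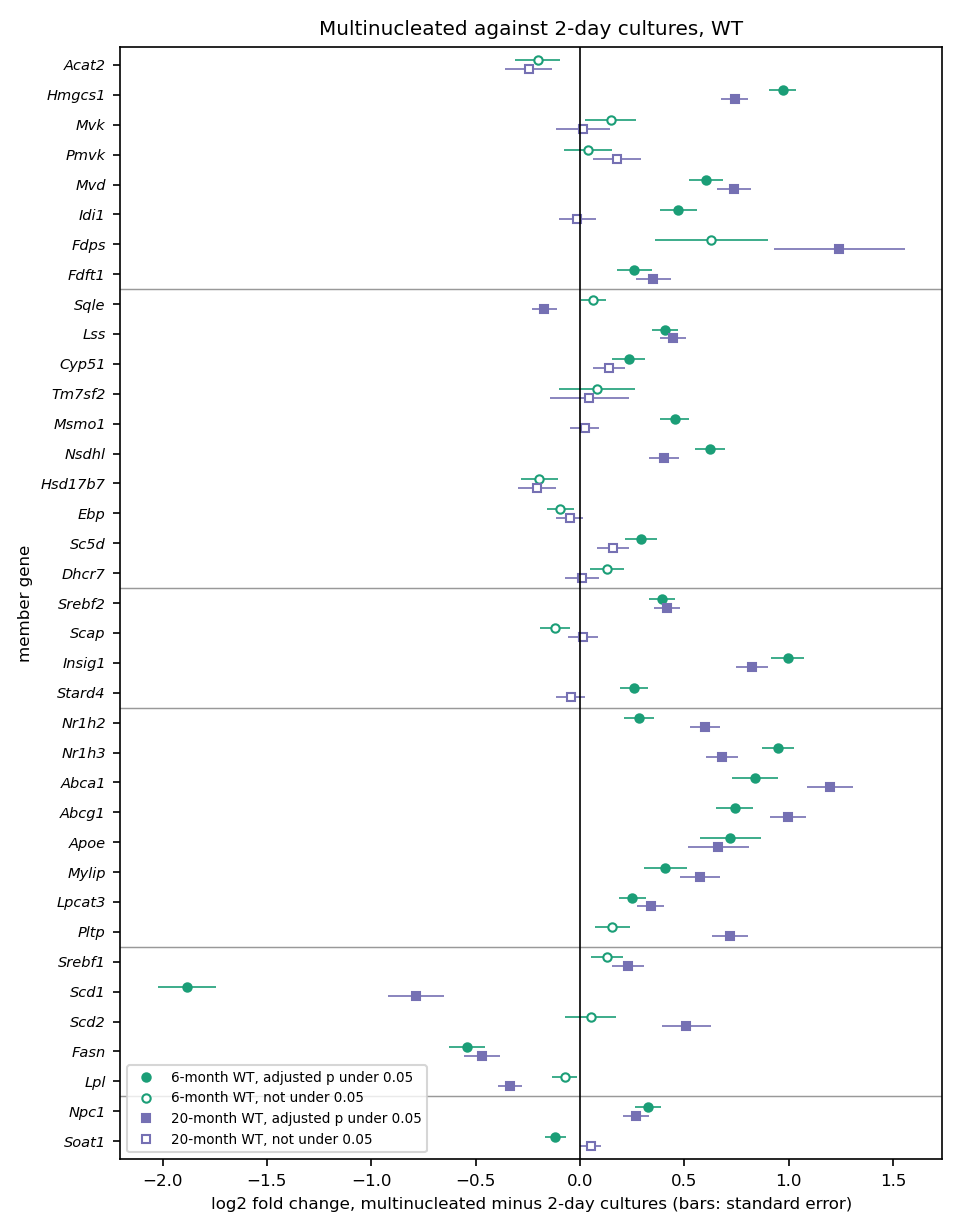
Log2 fold change of the 37 genes from the 2-day to the multinucleated stage in WT cells of 6 and 20 months, with standard errors from the fit. Hmgcs1 and Insig1 (SREBP2 pathway) and Abca1 and Nr1h3 (LXR) lie high at both ages and Scd1 lies low at both, farther down at 6 months.

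The change between stages was compared between ages by a test of the difference itself. It differed for 3 SREBP2 pathway genes and 4 LXR and lipogenic genes (12.4% of all genes differed). Scd1 fell less at 20 months (difference 1.10 ± 0.20 on the log2 scale, adjusted p 0.00012), and Pltp rose more (0.56 ± 0.12, adjusted p 0.0011). Msmo1, a sterol methyl oxidase, rose less at 20 months (-0.43 ± 0.10, adjusted p 0.002), and so did Idi1, isopentenyl diphosphate isomerase (-0.48 ± 0.13, adjusted p 0.0077). The differences of Lpl, Nr1h2 and Stard4 were lost when any of several single libraries was left out, for each gene without replicate 4 of the 6-month multinucleated group (adjusted p 0.085, 0.16 and 0.17). The LXR and lipogenic count fell to 2 without replicate 4 of the 6-month 2-day group, replicate 1 of the 20-month 2-day group, or replicate 2 or 4 of the 20-month multinucleated group. The SREBP2 pathway count rose to 5 without replicate 1 of the 6-month 2-day group. The stage change was higher at 20 months for 7 of 10 stromal markers, and lower for 4 osteoclast markers and 1 macrophage marker.

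Between 6 and 20 months in WT multinucleated cells, LXR export genes and both desaturases rose while few cholesterol synthesis genes changed. In the LXR group 7 of 13 genes rose and none fell, where 7.39% of all genes rose and 6.90% fell; 2 were lower at an unadjusted p under 0.05 and 0 by DESeq2. Abca1 read 128, 131 and 149 CPM at 6 months and 207, 226 and 229 at 20 months (1.62-fold, 0.70 ± 0.11, adjusted p 1.6e-05). Abcg1 read 60.4, 64.7 and 68.7 CPM and then 88.7, 91.6 and 110 (1.49-fold, 0.58 ± 0.08, adjusted p 7.1e-06). Mylip, whose product marks the LDL receptor for degradation, read 9.52, 10.3 and 10.4 CPM and then 13.9, 16.0 and 17.2 (1.56-fold, 0.64 ± 0.09, adjusted p 7.8e-06). None of these groups overlapped.

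Pltp rose 1.48-fold (0.56 ± 0.08, adjusted p 8.5e-06), Scd2 1.78-fold (0.83 ± 0.12, adjusted p 5.5e-06) and Scd1 1.68-fold (0.75 ± 0.15, adjusted p 0.00055). Apoe was higher by 0.42 on the log2 scale (adjusted p 0.048), a call lost with each of the 6 libraries left out in turn (adjusted p 0.052 to 0.24). The receptors Nr1h3 (log2 0.03, adjusted p 0.82) and Nr1h2 (0.11, adjusted p 0.36) did not pass the test. None of the 22 SREBP2 pathway genes rose by edgeR, with 0 at an unadjusted p under 0.05 and 0 by DESeq2. Msmo1 (-0.26), Nsdhl (-0.22) and Sqle (-0.20) fell, and none of these calls held without replicate 4 of the 6-month group or without replicate 1 of the 20-month group. Beside these changes 6 of the 10 stromal markers rose and 1 fell, 2 osteoclast markers rose and 1 fell, and 1 macrophage marker rose and 1 fell.

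In 2-day WT cells the same age step gave 6 LXR and lipogenic genes higher and 3 lower (7.48% of all genes rose and 11.3% fell). Mylip rose from 7.01, 7.90 and 7.95 CPM to 10.2, 10.8 and 10.8 (1.39-fold, 0.48 ± 0.11, adjusted p 0.0013) and Nr1h3 rose 1.23-fold (0.30 ± 0.08, adjusted p 0.0074). Stard4, a cytosolic sterol carrier, rose 1.24-fold (0.31 ± 0.07, adjusted p 0.0013), one of 3 SREBP2 pathway genes called. These 2-day counts were unstable. The 9 LXR and lipogenic calls became 3 without replicate 2 or 4 of the 6-month group, 4 without replicate 1 and 5 without replicate 2 of the 20-month group. The 3 SREBP2 pathway calls became 6 without replicate 1 and 1 without replicate 2 or 4 of the 6-month group. In the same step 6 of 10 osteoclast markers rose, 6 of 10 stromal markers fell and 2 macrophage markers fell.

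From 1 to 6 months, unprefixed WT multinucleated cells showed a rise of Hmgcs1, Insig1 and the desaturases beside falls in other steps of the same pathways. Of the 22 SREBP2 pathway genes 8 rose and 8 fell, where 31.2% of all genes rose and 32.5% fell. Hmgcs1 went from 46.5, 48.5 and 50.7 CPM to 108, 115 and 130 (2.43-fold, 1.28 ± 0.07, adjusted p 5.8e-18). Insig1 went from 42.4, 43.6 and 45.1 CPM to 68.6, 72.4 and 82.8 (1.71-fold, 0.77 ± 0.08, adjusted p 8e-11). Tm7sf2, a sterol reductase, went down from 7.0, 7.25 and 8.72 CPM to 2.99, 3.68 and 4.21 (2.10-fold, -1.07 ± 0.16, adjusted p 5.5e-07). The pathway genes thus did not move as one, since Pmvk, phosphomevalonate kinase (log2 -0.57), and Scap (-0.49) also fell, and Srebf2 did not pass the test (-0.02, adjusted p 0.8).

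Of the 13 LXR and lipogenic genes 3 rose and 8 fell over this step. DESeq2 called 3 higher and 6 lower, and the 11 calls became 8 to 10 with each library left out. Scd2 stood at 19.5, 20.0 and 20.6 CPM at 1 month and at 120, 132 and 159 at 6 months (6.85-fold, 2.78 ± 0.14, adjusted p 1.8e-18). Scd1 stood at 1.43, 1.64 and 1.81 CPM and then at 5.78, 5.98 and 6.87 (3.82-fold, 1.93 ± 0.20, adjusted p 2.1e-10). Pltp fell 1.6-fold (-0.67 ± 0.08), Mylip 1.35-fold (-0.43 ± 0.09) and Nr1h2 1.34-fold (-0.42 ± 0.07). All 10 osteoclast markers and 9 of 10 stromal markers rose in the same comparison, and 7 of 10 macrophage markers fell and 1 rose. At 20 months against 1 month, Hmgcs1 was 2.32-fold, Scd2 12.2-fold and Abcg1 1.93-fold higher; in all, 6 SREBP2 pathway genes were higher and 9 lower (34.2% and 34.4% of all genes), and 6 LXR and lipogenic genes were higher and 4 lower. Higher markers at 20 months were all 10 of the osteoclast list, 9 of the stromal list and 2 of the macrophage list, and 7 macrophage markers were lower.

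At 1 month, unprefixed KO cells had higher levels than unprefixed WT of Apoe, the receptor Nr1h3, Mylip and Lpl. In all, 7 of the 13 LXR and lipogenic genes were higher in KO and 3 lower, where 20.7% of all genes were higher and 20.8% lower, with a median log2 fold change of 0.29. Apoe read 255, 262 and 333 CPM in WT and 732, 905 and 925 in KO (3.01-fold, 1.59 ± 0.15, adjusted p 8.4e-11). Nr1h3 read 36.6, 42.7 and 44.0 CPM in WT and 64.2, 73.2 and 74.0 in KO (1.72-fold, 0.78 ± 0.07, adjusted p 5.2e-11). For both genes every KO library lay above every WT library.

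Mylip read 12.2, 13.2 and 15.4 CPM in WT and 21.0, 22.3 and 23.5 in KO (1.64-fold, 0.71 ± 0.09, adjusted p 3.8e-08). Lpl, already the most abundant of the genes per kilobase, read 2211, 2550 and 2617 CPM in WT and 3634, 3665 and 4293 in KO (1.57-fold, 0.65 ± 0.06, adjusted p 4.9e-11). Abca1 was 1.40-fold higher (0.48 ± 0.11, adjusted p 0.00041). The export genes did not all go up, since Abcg1 (log2 -0.33 ± 0.09, adjusted p 0.0029) and Pltp (-0.42 ± 0.08, adjusted p 9.6e-05) were lower in KO. Scd2 was low in both genotypes, 19.5 to 20.6 CPM in WT and 16.2 to 17.4 in KO (log2 -0.27, adjusted p 0.17). Scd1 was higher in KO by 0.66 on the log2 scale at 1 to 3 CPM, a call lost without replicate 4 of the KO (adjusted p 0.061) or replicate 3 of the WT (adjusted p 0.072). Fasn was lower by 0.30, lost without replicate 1 of the KO (adjusted p 0.054) or replicate 4 of the WT (adjusted p 0.11).

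Only 2 of the 22 SREBP2 pathway genes were higher in 1-month KO and 4 lower, the first share below that of all genes and the second near it. Sqle read 59.7, 66.8 and 70.1 CPM in WT and 53.5, 55.0 and 56.6 in KO (1.19-fold lower, -0.25 ± 0.06, adjusted p 0.00078). Hmgcs1 (log2 -0.11, adjusted p 0.19), Insig1 (0.16, adjusted p 0.099) and Scap (0.02, adjusted p 0.83) did not pass the test. Idi1 (-0.25) and the last-step reductase Dhcr7 (0.25) were called, but neither without replicate 4 of the KO (adjusted p 0.13 and 0.054) or of the WT (0.11 and 0.051). Tm7sf2 was 1.40-fold higher (0.49 ± 0.14, adjusted p 0.0049), lost without replicate 1 of the KO (adjusted p 0.055). Srebf2 was lower by 0.19 on the log2 scale, lost without replicate 1 of the KO and without replicate 3 or 4 of the WT (adjusted p 0.054 to 0.11). The 6 SREBP2 pathway calls became 3 without replicate 1 or 4 of the KO and 2 without replicate 4 of the WT. In the same comparison all 10 osteoclast markers were lower in KO, all 10 macrophage markers higher and 7 of 10 stromal markers higher.

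Set 519 KO libraries, compared with the same unprefixed 1-month WT, gave 10 LXR and lipogenic genes higher and 1 lower, and 6 SREBP2 pathway genes higher and 6 lower (27.2% of all genes were higher and 29.8% lower). The WT libraries are shared, so this is no separate test of the genotype. Apoe stood at 687, 688 and 877 CPM (2.65-fold above WT), Mylip at 29.8, 30.2 and 30.2 CPM (2.21-fold) and Abca1 at 223, 294 and 315 CPM (1.72-fold). Hmgcs1, not called in unprefixed KO, was 1.41-fold higher here (0.50 ± 0.07, adjusted p 3.5e-07), and Abcg1, lower in unprefixed KO, was 1.39-fold higher (0.48 ± 0.09, adjusted p 4.3e-05). Acat2, an acetyl-CoA acetyltransferase at the entry to the mevalonate branch (log2 -0.88 ± 0.14), and Idi1 (-0.65 ± 0.11) were lower. Scd1 was higher by 0.72 on the log2 scale (adjusted p 0.031), lost without replicate 4 of the KO (adjusted p 0.24) or replicate 3 or 4 of the WT (0.068 and 0.054). Among osteoclast markers 7 of 10 were higher in this set and 1 lower, the opposite balance to unprefixed KO. Of the macrophage list 3 were higher and 5 lower, and of the stromal list 2 were higher.

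Against set D1 WT, the choice of control changed the direction of several genes. Insig1 was lower in unprefixed KO (log2 -1.28) and in set 519 KO (-1.24), and Hmgcs1 was lower by 1.35 and 0.73. Abca1, higher than unprefixed WT in both KO sets, was lower than set D1 WT in both (-1.13 and -0.83), since set D1 held 462, 504 and 514 CPM. Apoe (1.03 and 0.84), Nr1h3 (1.17 and 0.63), Lpl (1.46 and 1.23) and Soat1 (0.45 and 0.61) were higher in both KO sets against set D1, as they were against unprefixed WT. In these comparisons 8 SREBP2 pathway genes were higher and 9 lower in unprefixed KO (38.2% and 35.5% of all genes), and 7 higher and 6 lower in set 519 (31.1% and 31.2%). All 10 osteoclast markers were lower than in set D1 in both KO sets, as were 9 stromal markers in unprefixed KO and 8 in set 519. Macrophage markers were higher for 9 of 10 in unprefixed KO, and 4 were higher and 2 lower in set 519.

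The WT sets of 1 month also differed from each other. Of the 22 SREBP2 pathway genes 8 were higher in set D1 and 9 lower, and of the 13 LXR and lipogenic genes 5 were higher and 8 lower, where 37.5% of all genes were higher and 36.9% lower. Insig1 was 2.71-fold (1.44 ± 0.07), Hmgcs1 2.35-fold (1.23 ± 0.07), Abca1 3.05-fold (1.61 ± 0.11) and Scd1 9.81-fold (3.29 ± 0.18) higher in set D1. Fasn was lower by 1.12, Pltp by 0.89 and Scap by 0.79 on the log2 scale. Set D1 also had 9 of 10 osteoclast markers and 9 of 10 stromal markers higher, with 3 macrophage markers higher and 4 lower, and differed in sex by its Xist and Y-linked counts.

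At 6 months single genes of both pathways differed between KO and WT, and single steps of cholesterol synthesis went opposite ways. In either direction 12 of the 22 SREBP2 pathway genes were called, and 9179 of all 15310 genes tested. Of the 22 SREBP2 pathway genes 8 were higher in unprefixed KO and 4 lower, where 30.5% of all genes were higher and 29.5% lower, and the median log2 fold change was 0.01. Hmgcs1 read 108, 115 and 130 CPM in WT and 50.7, 54.1 and 56.1 in KO, 2.2-fold lower (-1.13 ± 0.07, adjusted p 1.2e-16). Insig1 read 68.6, 72.4 and 82.8 CPM in WT and 43.4, 45.6 and 47.9 in KO, 1.64-fold lower (-0.71 ± 0.07, adjusted p 5.5e-10). Both genes were separated between genotypes without overlap, and Nsdhl was 1.42-fold lower as well (-0.50 ± 0.07, adjusted p 1.4e-07).

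In the other direction, Sqle read 53.6, 56.1 and 61.5 CPM in WT and 71.7, 75.6 and 76.2 in KO (1.3-fold higher, 0.38 ± 0.06, adjusted p 8.2e-07). Srebf2 read 131, 132 and 138 CPM in WT and 163, 168 and 170 in KO (1.25-fold, 0.32 ± 0.06, adjusted p 2.4e-05). Scap was 1.55-fold higher (0.63 ± 0.07, adjusted p 9.5e-10) and Tm7sf2 1.97-fold higher (0.97 ± 0.16, adjusted p 3.3e-06). The regulator and its escort were thus higher in KO. Among the pathway genes that SREBP2 is known to switch on, Hmgcs1 and Insig1 were lower and Sqle was higher.

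**Figure D3:**
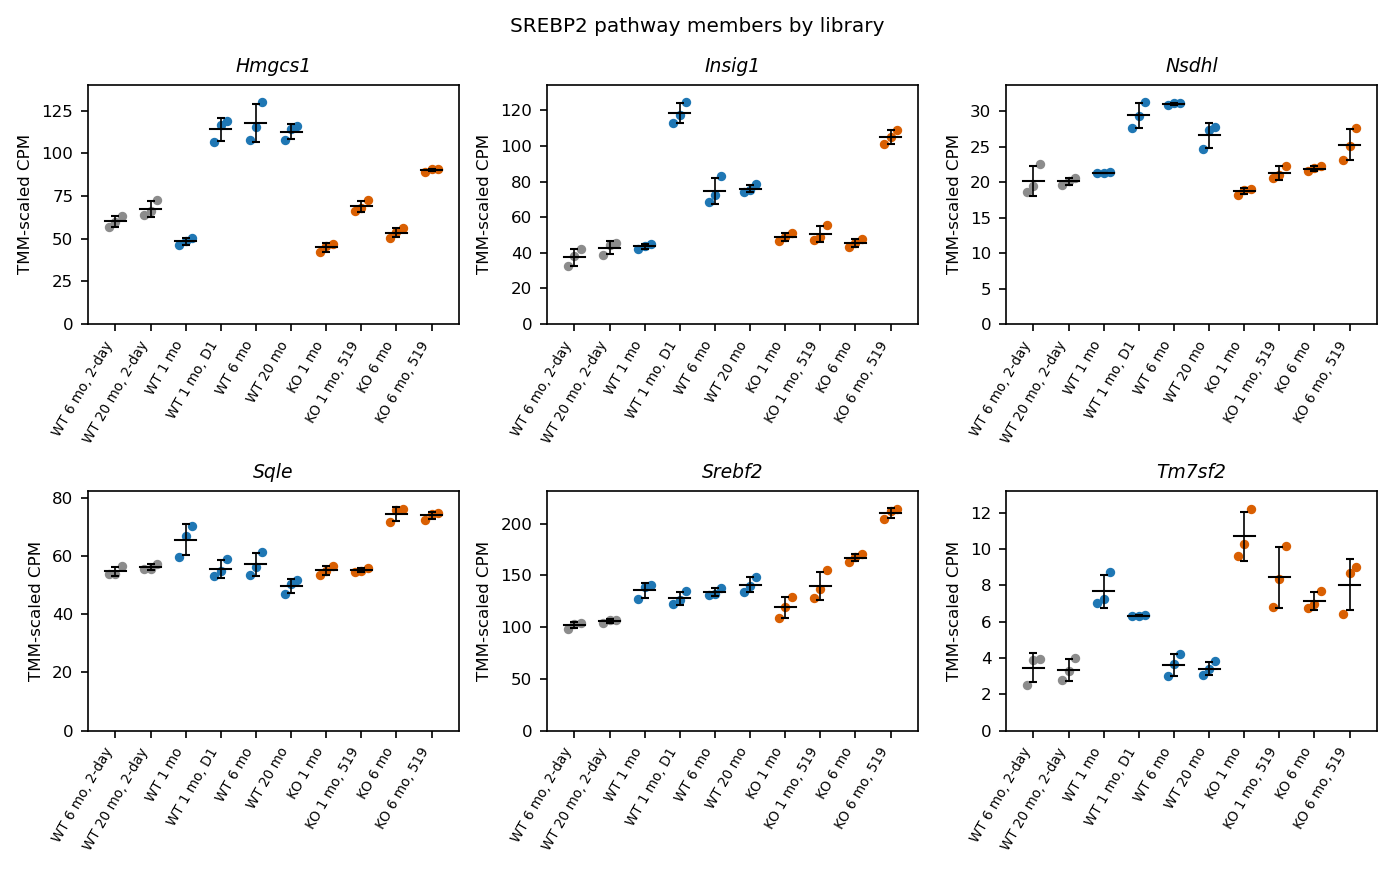
Level in CPM of SREBP2 pathway genes in each of the 30 libraries, by group; points are libraries sorted from low to high within a group, bars are means and error bars the SD of 3 libraries, with grey for 2-day WT, blue for multinucleated WT and orange for KO. Hmgcs1 is at 108 to 130 CPM in 6-month WT and at 50.7 to 56.1 CPM in unprefixed 6-month KO, and Insig1 separates the 6-month KO sets.

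LXR genes at 6 months were higher in KO for 9 of 13 and lower for 3, with 6 of the 8 receptors and targets higher and 1 lower. Of these, Nr1h3 (log2 0.19) and Lpcat3, a phospholipid acyltransferase (0.15), were not called by DESeq2 (adjusted p 0.058 and 0.074), which called 7 of the 13 and 4 of the 8 higher. Both calls were also lost with the replicate block (adjusted p 0.053 and 0.089), and each was lost in several fits without 1 library (adjusted p up to 0.094 for Nr1h3, without replicate 3 of the KO, and up to 0.15 for Lpcat3, without replicate 2 of the WT). Mylip read 9.52, 10.3 and 10.4 CPM in WT and 18.8, 19.9 and 20.5 in KO (1.96-fold, 0.97 ± 0.09, adjusted p 3.9e-11). Abca1 read 128, 131 and 149 CPM in WT and 196, 197 and 225 in KO (1.51-fold, 0.60 ± 0.11, adjusted p 1.3e-05). Pltp was 1.52-fold (0.60 ± 0.08), Srebf1, which encodes the SREBP1 regulator of fatty acid synthesis, 1.47-fold (0.55 ± 0.07) and Nr1h2 1.40-fold higher (0.48 ± 0.07). Apoe, so much higher in KO at 1 month, read 246 to 312 CPM in WT and 212 to 262 in KO at 6 months (log2 -0.26, adjusted p 0.12).

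The desaturases gave the largest differences. Scd2 read 120, 132 and 159 CPM in 6-month WT and 19.5, 25.9 and 26.0 in KO, 5.77-fold lower (-2.53 ± 0.13, adjusted p 1.3e-17). Scd1 read 5.78, 5.98 and 6.87 CPM in WT and 2.00, 2.32 and 2.35 in KO, 2.80-fold lower (-1.48 ± 0.18, adjusted p 1.8e-08). Fasn, in contrast, was 1.25-fold higher in KO (0.32 ± 0.09, adjusted p 0.0018). At the same time all 10 osteoclast markers and 8 of 10 stromal markers were lower in KO, and 9 of 10 macrophage markers were higher and 1 lower.

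Set 519 KO of 6 months, compared with the same WT libraries, gave 12 SREBP2 pathway genes higher and 3 lower, and 7 LXR and lipogenic genes higher and 3 lower (25.7% of all genes were higher and 25.9% lower). Srebf2 stood at 205, 212 and 214 CPM, 1.57-fold above WT (0.66 ± 0.06, adjusted p 6.8e-11), and Scap was 1.68-fold and Tm7sf2 2.17-fold higher. Insig1 stood at 101, 105 and 109 CPM, 1.41-fold above WT (0.49 ± 0.08, adjusted p 1.3e-06), whereas in unprefixed KO it was below WT. Hmgcs1 was lower than WT (-0.38 ± 0.07, adjusted p 9.7e-06) by less than in unprefixed KO. Mylip (2.40-fold) and Abca1 (1.89-fold) were higher, and Scd2 (7.24-fold) and Scd1 (7.02-fold) lower than in WT. The Scd1 fold is uncertain, since its mean in this set was 1.02 CPM, where 3 counts equal 0.245 to 0.494 CPM. Apoe was lower by 0.47 on the log2 scale, a call lost without replicate 3 of the WT (adjusted p 0.063) or replicate 4 of the KO (adjusted p 0.051). Stromal markers were lower for 9 of 10 in this set, while 5 of 10 osteoclast markers were higher and 2 lower, and 8 of 10 macrophage markers were higher and none lower.

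The KO sets of 6 months were compared with each other directly, which does not involve the WT libraries. Insig1 was 2.30-fold (1.20 ± 0.08, adjusted p 5.6e-15) and Hmgcs1 1.68-fold (0.75 ± 0.07, adjusted p 3.2e-11) higher in set 519, and Lss and Mvd were higher by 0.47 and 0.45 on the log2 scale. In all, 9 SREBP2 pathway genes were higher in set 519 and none lower, where 22.6% of all genes were higher and 26.5% lower; 1 was lower at an unadjusted p under 0.05 and 0 by DESeq2. Scd1 was lower in set 519 (-1.33 ± 0.34, adjusted p 0.0013), at a mean of only 1.02 CPM there, and Scd2 did not pass the test (-0.33, adjusted p 0.1). All 10 osteoclast markers were higher in set 519, 7 of 10 stromal markers were lower, and 3 macrophage markers were higher and 7 lower. At 1 month 7 SREBP2 pathway genes were higher in set 519 and 7 lower (21.9% and 28.2% of all genes), with Hmgcs1 1.53-fold, Abcg1 1.76-fold and Pltp 1.68-fold higher and Acat2 1.79-fold lower in set 519. The balance depended on the method, since DESeq2 called 7 higher and 3 lower, RLE size factors gave 4 lower, and a fit of only the compared groups gave 6 higher and 2 lower. All 10 osteoclast markers were higher in set 519 at 1 month as well, 8 macrophage markers were lower and 1 higher, and 4 stromal markers were lower and 1 higher.

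**Figure D4:**
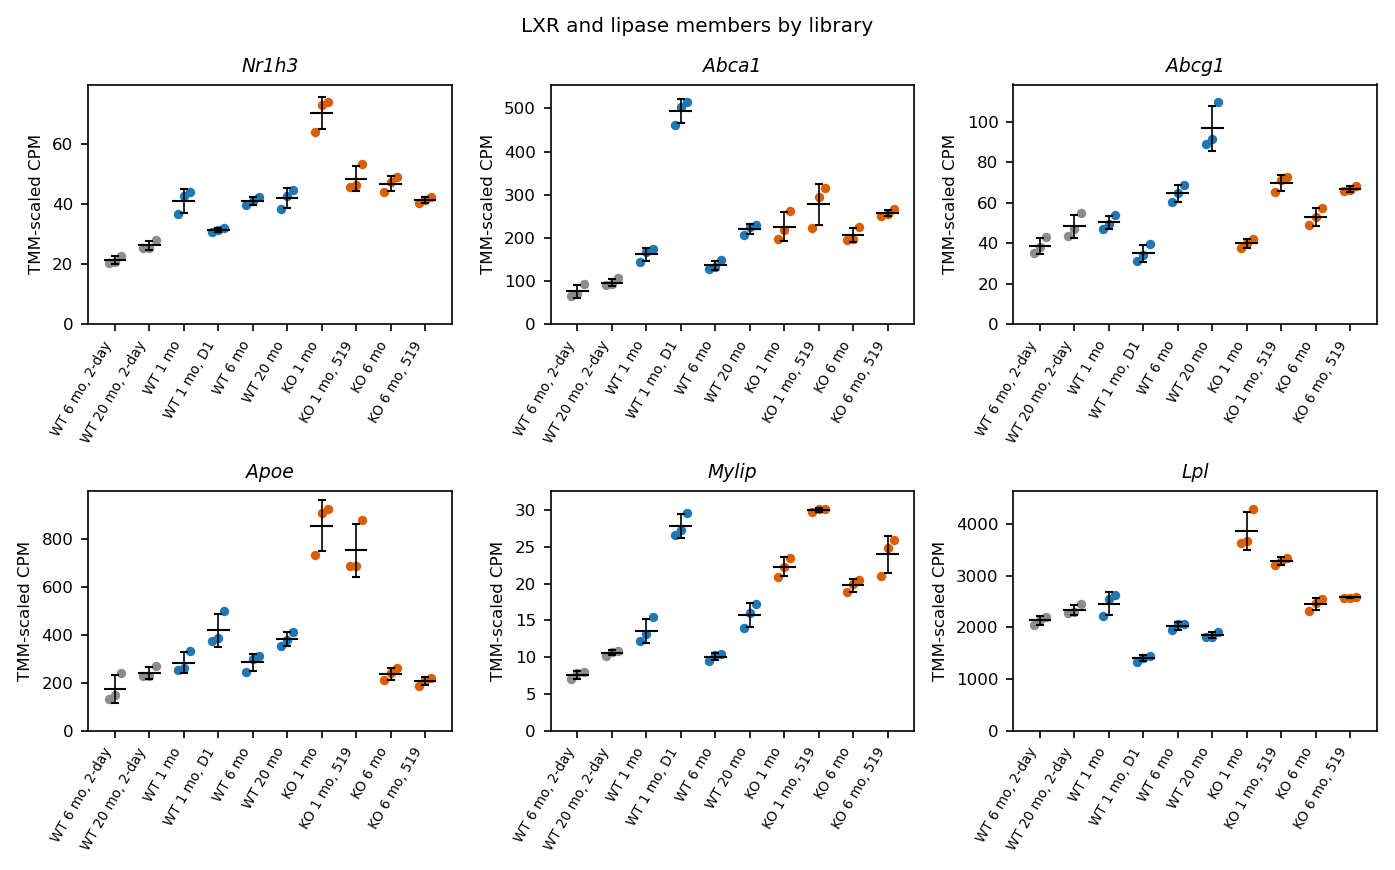
Level in CPM of LXR receptor and target genes and of Lpl in each of the 30 libraries, by group, drawn with points for libraries, bars for means and error bars for the SD of 3 libraries. Apoe is highest in both 1-month KO groups (687 to 925 CPM), Abca1 in set D1 WT (462 to 514 CPM), and Mylip is lower in every 6-month WT multinucleated library than in every KO library.

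A test of the difference between the KO effects of 6 months and 1 month, within unprefixed libraries, found 7 SREBP2 pathway genes with a higher and 4 with a lower effect at 6 months (27.1% and 21.6% of all genes, 48.6% in either direction), and 3 and 5 LXR and lipogenic genes. The KO effect on Hmgcs1 was lower by 1.02 (adjusted p 6.6e-11) and that on Insig1 by 0.87 (adjusted p 3.3e-08) on the log2 scale at 6 months. It was higher for Sqle by 0.63 (adjusted p 9.2e-08), for Scap by 0.61 and for Srebf2 by 0.51. Apoe (-1.86 ± 0.20, adjusted p 3.2e-09) and Scd2 (-2.26 ± 0.20, adjusted p 3.8e-11) had the lower effect at 6 months, and Pltp the higher (1.02 ± 0.12, adjusted p 7.8e-09). Most of these differences depended on which WT libraries stood for 1 month. With set D1 WT in that place, a fit added after seeing the data, 11 of the 20 genes called in either direction changed sign, among them Hmgcs1 (0.21, adjusted p 0.065), Insig1 (0.57, adjusted p 4.4e-05), Scd2 (0.48, adjusted p 0.044) and Scap (-0.18, adjusted p 0.15). Apoe (-1.29, adjusted p 3.7e-06), Sqle (0.39, adjusted p 0.00024) and Srebf2 (0.42, adjusted p 0.00014) kept their sign and passed the test with either control. The KO effect was lower at 6 months in unprefixed libraries for 9 of 10 stromal markers, lower for 5 and higher for 3 osteoclast markers, and higher for 6 and lower for 2 macrophage markers.

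Within the KO, age changed Apoe most. In unprefixed KO it fell from 732, 905 and 925 CPM at 1 month to 212, 239 and 262 at 6 months (3.60-fold, -1.85 ± 0.15, adjusted p 2.8e-12). Set 519 showed 687, 688 and 877 CPM at 1 month and 186, 212 and 219 at 6 months (3.66-fold, -1.87 ± 0.15, adjusted p 4.2e-12). These comparisons share no libraries, and in each the ages did not overlap. Srebf2 rose 1.40-fold in unprefixed KO and 1.5-fold in set 519, and Sqle 1.35-fold in each. Insig1 went from 47.5, 48.9 and 55.9 CPM to 101, 105 and 109 in set 519 (2.09-fold, 1.06 ± 0.08, adjusted p 2.3e-12), but from 46.5 to 51.1 CPM to 43.4 to 47.9 in unprefixed KO (log2 -0.10, adjusted p 0.35).

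In set 519 15 of the 22 SREBP2 pathway genes rose from 1 to 6 months, where 19.2% of all genes rose, and none fell, where 13.2% did. DESeq2 called 12 higher and 0 lower, and 0 were lower at an unadjusted p under 0.05. The balance over all genes depended on the scaling, with 2944 higher and 2026 lower by TMM. With RLE size factors 2392 were higher and 2588 lower. Idi1 rose 1.82-fold (0.86 ± 0.12), Cyp51 1.38-fold (0.47 ± 0.09) and Sqle 1.35-fold. Of the 13 LXR and lipogenic genes 1 rose and 7 fell, with Pltp lower by 0.50 and Lpl by 0.35 on the log2 scale. In unprefixed KO 6 SREBP2 pathway genes rose and 2 fell (19.7% and 17.8% of all genes), Tm7sf2 by 0.58 on the log2 scale, and 5 LXR and lipogenic genes rose and 4 fell, with Lpl (-0.66 ± 0.06) and Nr1h3 (-0.59 ± 0.07) lower and Scd2 higher (0.52 ± 0.15). All 10 osteoclast markers rose with age in each KO set. In unprefixed KO all 10 macrophage markers fell, and 3 stromal markers rose and 1 fell. In set 519, 2 macrophage markers rose and 3 fell, and 5 stromal markers fell.

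Across all groups, Scd2 and Scd1 fell into separate ranges, a pattern noticed in the data and given here with no test. Scd2 (chromosome 19, 44293676 to 44306864, GRCm38, plus strand) lies on the same chromosome as Scd1 (chromosome 19, 44394451 to 44407709, minus strand). Scd2 was at 13.3 to 26.0 CPM in 15 libraries (unprefixed 1-month WT and all 4 KO groups), and at 105 to 253 CPM in the 15 other WT libraries. Scd1 was at 0.598 to 4.68 CPM and 5.78 to 27.9 CPM in the same libraries. Of the 10 stromal markers only Col1a1, Col1a2, Sparc and Pdgfrb were picked for this comparison, and each divided the same libraries without overlap. The list as a whole did not, since 1 stromal marker had no counts in any library of 2-day 20-month WT. Col1a1 was at 108 to 255 and 310 to 1412 CPM, Sparc at 79.8 to 169 and 291 to 955 CPM, and Pdgfrb at 5.61 to 12.6 and 25.3 to 96.5 CPM. Between unprefixed 6-month KO and WT, 8 of the 10 stromal markers did not overlap. The osteoclast protease gene Ctsk overlapped, with 56.8 to 5860 CPM and 1021 to 11628 CPM. Mmp9 of the osteoclast list overlapped as well, with 290.5 to 13361.5 CPM and 1246.8 to 23116.4 CPM. The macrophage marker Adgre1 went the other way with overlap, at 1423 to 3084 CPM and 446 to 1611 CPM. Of 8 adipocyte markers 7 stayed under 1 CPM in every library. The part of stromal RNA in the Scd1 and Scd2 levels was not tested.

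**Figure D5:**
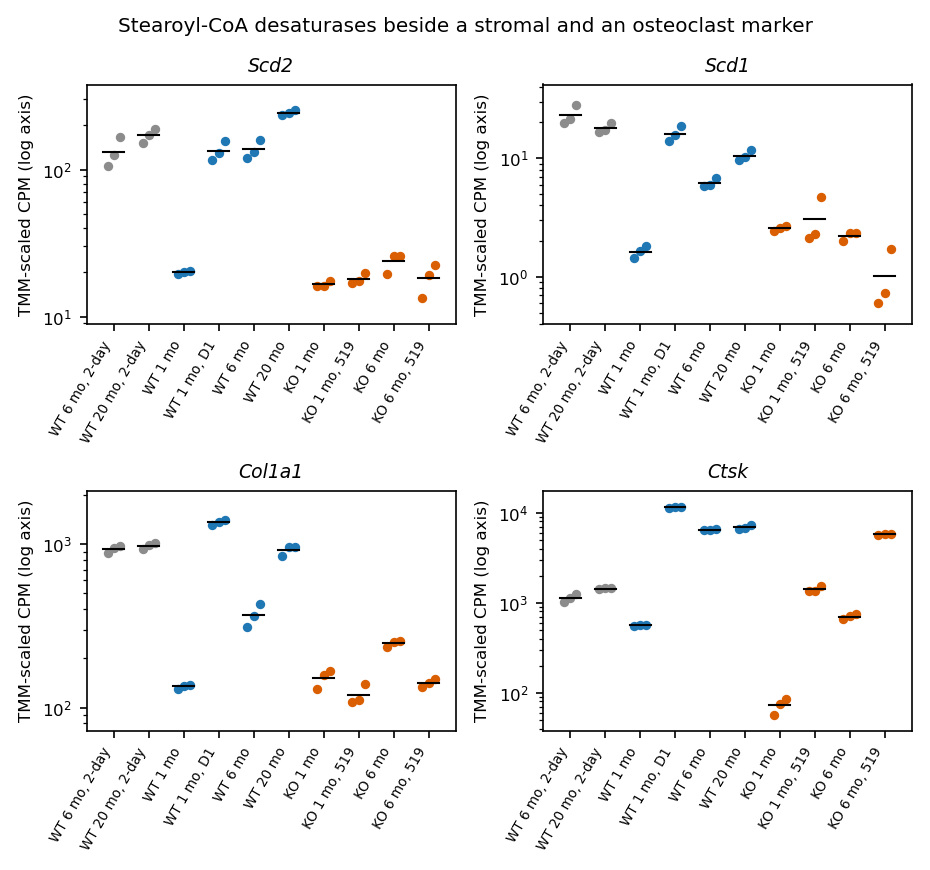
Level of Scd2, Scd1, the stromal marker Col1a1 and the osteoclast marker Ctsk in each of the 30 libraries on a log axis in CPM, by group; points are libraries and bars the means of 3. The KO libraries and those of unprefixed 1-month WT, 15 in all, lie below the 15 other WT libraries for Scd2 (13.3 to 26.0 against 105 to 253 CPM).

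Soat1, which esterifies cholesterol for storage, was higher in KO in each of the 4 comparisons with unprefixed WT. At 1 month it read 254, 261 and 267 CPM in WT and 325, 334 and 352 in KO (1.29-fold, 0.37 ± 0.05, adjusted p 2.5e-07). At 6 months it read 202, 202 and 205 CPM in WT and 283, 295 and 307 in KO (1.45-fold, 0.54 ± 0.05, adjusted p 2.9e-11). In set 519 it was 1.45-fold higher at 1 month and 1.35-fold at 6 months against those WT libraries. It fell between 1 and 6 months in WT (log2 -0.36 ± 0.05), in unprefixed KO (-0.19 ± 0.05, adjusted p 0.0025) and in set 519 KO (-0.47 ± 0.05). Npc1, the lysosomal cholesterol exporter, did not pass the test in unprefixed KO (0.05 and -0.09 on the log2 scale, adjusted p 0.57 and 0.22). It was 1.44-fold higher in set 519 at 1 month and rose with the multinucleated stage 1.25-fold at 6 months and 1.20-fold at 20 months.

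Other genes of these pathways were counted from lists of 22 further SREBP2 pathway genes, all measured, and 30 further LXR and lipid genes, 25 of them measured. From day 2 to the multinucleated stage the further SREBP2 pathway genes showed 5 rises and 9 falls at 6 months (23.4% and 27.4% of all genes), and 4 and 9 at 20 months (25.4% and 26.9%). At both ages their rises were no more frequent than among all genes and their falls were more frequent, unlike the 22 members. The further LXR and lipid genes measured showed 6 rises and 8 falls at 6 months, and 6 and 7 at 20 months. Insig2, the second sterol sensor that holds SCAP back, rose from 33.3 ± 0.60 to 69.8 CPM at 6 months (2.10-fold, 1.07 ± 0.06, adjusted p 1.1e-17). Fads2, a desaturase of polyunsaturated fatty acids, fell 4.84-fold (-2.27 ± 0.19, adjusted p 3.3e-12). Cd36, a scavenger receptor that takes up fatty acids and oxidised LDL, fell 2.23-fold at 6 months and 2.70-fold at 20 months.

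In KO against WT, further LXR and lipid genes were higher for 12 and lower for 3 at 1 month, and higher for 16 and lower for 5 at 6 months, and in set 519 16 and 14 were higher and 3 and 4 lower. Of all genes, 20.7% were higher and 20.8% lower at 1 month and 30.5% and 29.5% at 6 months, and in set 519 27.2% and 29.8% at 1 month and 25.7% and 25.9% at 6 months. Cd36 was 2.30-fold higher in unprefixed KO at 1 month (1.20 ± 0.05, adjusted p 4.5e-19) and 2.59-fold at 6 months (1.37 ± 0.05, adjusted p 1.4e-21). Fabp4, a fatty acid carrier, was 3.04-fold higher at 1 month (1.6 ± 0.08, adjusted p 2.3e-17). Ch25h, which makes the LXR ligand 25-hydroxycholesterol, was 5.96-fold higher at 6 months (2.58 ± 0.18, adjusted p 2.1e-14), at 11.7 CPM in KO and 1.93 CPM in WT. In set 519, Ch25h was not called at 6 months (0.50, adjusted p 0.11) and Vldlr, a receptor for triglyceride-rich lipoproteins, was 3.83-fold higher at 1 month (1.94 ± 0.13). Between 6 and 20 months in WT, Vldlr rose 1.85-fold (0.89 ± 0.11, adjusted p 3.4e-07), the single rise among 25 genes, and 5 fell, Cd36 among them (-0.43 ± 0.05), where 7.39% of all genes rose and 6.90% fell.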

How the data were processed

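The authors deposited raw whole-number counts for each gene in each library. Per the file headers, read pairs aligned with STAR were counted with featureCounts 1.6.0 over exons of the Ensembl 88 annotation of GRCm38, with no strand or multimapping option recorded. The submitters' processing notes instead name HTSeq and mm10; the headers were followed. Read trimming and the version of STAR are not given in the sources used here.

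Groups were taken from sample titles. Of the identifiers, 99.39% had a symbol. After TMM scaling, edgeR 4.0.16 (with limma 3.58.1 under R 4.3.3) fitted all 30 libraries together, 1 coefficient for each group, and its quasi-likelihood test gave the p-values, adjusted by Benjamini-Hochberg. filterByExpr kept 15310 genes and removed 35376, and the common biological coefficient of variation was 0.061. The procedure was tested on simulated data. Levels are TMM-scaled CPM computed from the counts. Where counts were 0, 3 counts were taken as the limit, for counting error only.

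The members and lists were chosen with earlier results of these data known. Named genes were, per comparison and list, up to 4 with the largest change among those called at a mean of at least 5 CPM, plus genes that define the roles of the pathway, and up to 3 other pathway genes. Alternatives were DESeq2 1.42.0, RLE size factors, no low-count filter, a replicate block, each library left out, only the compared groups in the fit, title sets combined and, added after seeing the data, set D1 as the 1-month WT of the age difference. Counts of replicate libraries differed by more than sampling noise (chi-square per degree of freedom 1.28 to 22.3, genes of 50 or more counts).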

Additional observations from a re-analysis of the deposited data

Results flagged for a closer look

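The difference between KO and WT was not the same at 6 months as at 1 month, by the test of the difference itself in unprefixed libraries, for 20 of the 37 genes (48.6% of all genes tested). The values that follow are the 6-month KO effect minus the 1-month KO effect on the log2 scale. Negative differences were found for Scd2 (-2.26), Scd1 (-2.14), Apoe (-1.86), Hmgcs1 (-1.02), Insig1 (-0.87), Nr1h3 (-0.59), Lpl (-0.38), Nsdhl (-0.32) and Sc5d (-0.26). Positive differences were found for Pltp (1.02), Sqle (0.63), Mvk (0.63), Srebf1 (0.62), Fasn (0.62), Scap (0.61), Srebf2 (0.51), Pmvk (0.48), Ebp (0.39), Mvd (0.27) and Soat1 (0.17). The Soat1 difference (adjusted p 0.045) was lost with any of 9 of the 12 libraries left out, with adjusted p 0.052 to 0.12. With set D1 in place of unprefixed WT at 1 month, 11 of the 20 differences changed sign, 5 of them past the threshold (Insig1, Scd1, Scd2, Fasn and Ebp), and 6 of the 9 that kept their sign passed it (Apoe, Lpl, Nr1h3, Sqle, Srebf2 and Mvd).

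The change from day 2 to the multinucleated stage differed between 20 and 6 months in WT for 7 genes, again by the test of the difference itself. As 20-month minus 6-month log2 change, the values were 1.10 for Scd1, 0.56 for Pltp, 0.31 for Nr1h2, -0.26 for Lpl, -0.30 for Stard4, -0.43 for Msmo1 and -0.48 for Idi1.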

How the results depend on the processing

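Counts of called genes that moved by over 1.5 times are given here, and the cause was not tested. For the SREBP2 pathway in KO against WT at 1 month, 6 calls became 3 with no low-count filter, 2 with only the compared groups in the fit, 13 with both title sets on each side and 2 to 7 with each library left out. In WT at 20 against 6 months 3 became 1 with no filter and 0 to 3 with each library left out. In 2-day WT 3 became 5 with the replicate block, 6 with only the compared groups and 1 to 6 with each library left out, and the 9 LXR and lipogenic calls became 3 to 8. With no filter, KO at 6 against 1 month gave 5 SREBP2 pathway calls. With only the compared groups, set 519 against unprefixed KO gave 8 SREBP2 pathway calls at 1 month and 11 LXR and lipogenic calls at 6 months, and the stage by age difference gave 5 and 7 calls. With each library left out that difference gave 2 to 5 and 2 to 4.

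Reversal here means a change of sign where the main fit, the alternative or both called the gene. With both title sets on each side at 1 month, the KO difference reversed for Cyp51 (-0.14), Insig1 (-0.54), Abca1 (-0.17), Abcg1 (0.33), Pltp (0.40), Srebf1 (0.42), Scd1 (-0.96) and Fasn (0.25). Of these, Cyp51, Insig1 and Srebf1 were called only in the alternative and Abca1 only in the main fit. With set D1 as the WT of 1 month, an alternative chosen after seeing the data, the difference between the KO effects of 6 months and 1 month reversed for Hmgcs1 (0.21), Mvk (-0.05), Scap (-0.18), Insig1 (0.57), Stard4 (-0.35), Abcg1 (-0.47), Srebf1 (-0.02), Scd1 (1.15), Scd2 (0.48) and Fasn (-0.5). Hmgcs1, Mvk, Scap and Srebf1 were called only in the main fit, and Stard4 and Abcg1 only with set D1. That difference also changed sign for Ebp (-0.29), Nsdhl (0.15) and Sc5d (0.11). Reversal under the other alternatives was checked in each comparison for the role-defining genes and those of largest change. None of the other alternatives run reversed a gene so checked. Of the single-gene results, DESeq2 left 438 as they were, with 12 lost and 3 gained, and RLE size factors 442, with 8 lost and 3 gained. Same-numbered replicates gave no clear sign of pairing (correlations of deviations from -0.152 to 0.261 over 36 pairs, 1 over 0.1). With 2 or 3 such pairs in a comparison, this check cannot exclude pairing. The replicate block left 436 gene results as they were, with 10 lost and 7 gained. Depth limits set 519 and genes at a few CPM, such as Fdps and Scd1.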
